A study of Homo sapiens with 6 samples.

Results

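The narrowest isolated sites of Brpf2 in the genome of RKO cells are described here: 338 Brpf2 peaks on chromosomes 1 to 22 that span less than 1000 bp and whose nearest other peak on the same chromosome lies more than 2000 bp away, edge to edge. They are 2.94% of the 11513 autosomal peaks in a list of 11874. RKO is an established human colon carcinoma line, and the cells were grown in standard medium and left untreated. The series mapped chromatin by ChIP-seq (sequencing of DNA fragments pulled down with an antibody) in 6 samples, 1 for each of ING2, ING5, Brpf2, the histone mark H3K4me3, histone H3 and a rabbit IgG. The Brpf2 peak list was analysed, and the other 5 samples were not used here. All samples come from the same line, and the Brpf2 list rests on 1 antibody and 1 library, so no test between samples could be made.

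Brpf2, also named BRD1, is a scaffold of MYST-family histone acetyltransferase complexes, in which it holds together a catalytic subunit and small accessory subunits such as ING5. Its PHD fingers and its bromodomain bind histone tails and acetylated lysines, and ING5 has a PHD finger that reads H3K4me3, the mark of active gene starts. A peak is a stretch in which a caller found more sequenced fragments than its background model gave, and its width follows how far that excess extends.

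The members were chosen by measured values, their width and their distance to the neighbouring peak, so both are given as a description. The median member was 846 bp wide and the narrowest 438 bp, while the median of all autosomal peaks was 2352 bp. Of 463 autosomal peaks under 1 kb, 338 passed the distance rule, and the other 125 (27%, exact 95% interval 23 to 31.3%) had a peak within 2 kb. The same was true of 7.59% (7.02 to 8.20%) of the 7862 autosomal peaks of 1 to 3 kb, whose 7265 solitary peaks are the comparison group throughout. At the width limit, the 3 widest members spanned 997, 997 and 996 bp with scores of 51.32, 55.61 and 69.44, and the 3 narrowest comparison peaks spanned 1000 bp each with scores of 122.38, 114.45 and 85.45. At the distance limit, the 3 closest members lay 2292, 2494 and 2502 bp from another peak, and the 3 narrow peaks just left out lay 1894, 1882 and 1799 bp from one.

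Most narrow solitary peaks were near the bottom of the caller's score scale. The score is the authors' value for each peak, on a scale that the file leaves unstated, and the lowest score in the list is 50. Members had a median score of 65.6 (95% interval 62.9 to 70.2), with quartiles of 56.3 and 85.6, and comparison peaks a median of 454 (445 to 469). A score below 100 was given to 279 of the 338 members, and 22 members reached 150. Score and width come from the same caller and library, so these low scores go with the choice by width and are no independent finding. Because of this, 936 comparison peaks with scores at or below 123, the 90th percentile of the members, served as a second reference of wider peaks with low scores (median score 83.8, median width 1409 bp).

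**Figure D1:**
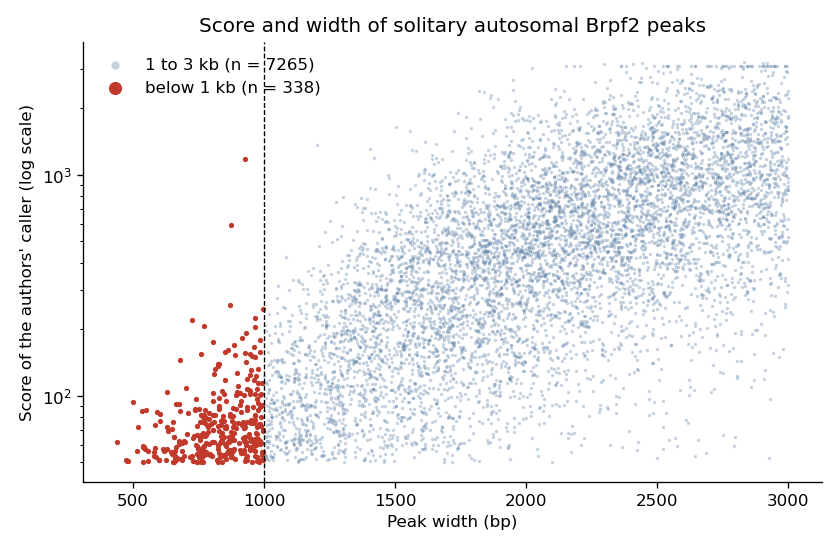
Score of the authors' caller (log scale) against peak width in bp for solitary autosomal Brpf2 peaks, each point being 1 peak and the dashed line standing at 1000 bp. The 338 narrow peaks (red) lie mostly below a score of 100, while the 7265 peaks of 1 to 3 kb (blue) spread up to 3224, and 1 narrow peak stands apart at 1173.7.

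A few narrow peaks departed from this. The member with the highest score, 1173.7, lay on chromosome 6 from 170762954 to 170763878 (all positions are in hg18, counted from 1), 26.5 kb from a peak of 2197 bp that scored 1378.59. The next, with 589.4, lay on chromosome 13 from 22846919 to 22847793, and its nearest neighbour was 512 kb away. Scores from 203 to 257 were given to 6 more. Of these, the peak on chromosome 2 from 107812424 to 107813291 (256.04) was 617 kb from the nearest other peak, and the one on chromosome 5 from 71182032 to 71183026 (246.09) was 261 kb from it. A peak on chromosome 3 from 162629478 to 162630200 (220.46) had its nearest neighbour at 205 kb, and one on chromosome 21 from 43809351 to 43810314 (225.54) had it at 92.9 kb. The remaining ones, chr12:102948482-102949252 (205.75) and chr3:37291670-37292634 (203.49), lay 32.1 and 30.2 kb from theirs. The nearest neighbours of these high-scoring narrow peaks thus lay between 26.5 and 617 kb away. The 5 narrowest members, between 438 and 501 bp wide, scored from 50.39 to 93.45. In order of width they were chr6:107112005-107112442, chr1:146559701-146560171, chr11:99837232-99837708, chr5:11449948-11450427 and chr2:176773874-176774374. The first had 5 other peaks within 500 kb, the second 12, the third 1 and the fourth none, while the fifth had 10. The surroundings of these 5 peaks thus differed.

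Narrow solitary peaks stood in emptier surroundings than solitary peaks of 1 to 3 kb. The median member had 6 other peaks within 500 kb of its midpoint on either side (95% interval 5 to 6), and the median comparison peak had 8 (7 to 8), a difference of −2 (interval −3 to −1). The interval included 0 among peaks scoring 100 or more (−2, −4.24 to 1) and with windows of 100 kb on each side (−1, −1 to 0). No other peak at all was found in that window around 34 of 338 members, or 10.1% (exact interval 7.07 to 13.8%), against 187 of 7265 comparison peaks, or 2.57% (2.22 to 2.96%). The difference was 7.49 percentage points (4.47 to 11.2), and with a distance rule of 500 bp it was 6.73 (3.95 to 10.2). The distance rule bears on this share, since each peak left out had another within 2 kb. It left out 27% of autosomal peaks under 1 kb and 7.59% of those of 1 to 3 kb. Counts of other peaks, here and below, therefore describe the chosen peaks. At the crowded end, 7.40% of members (4.84 to 10.7%) and 11.5% of comparison peaks (10.8 to 12.3%) had 20 or more other peaks around them. These intervals cover counting error within 1 library, and neighbouring peaks are not independent, so they are too narrow.

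**Figure D2:**
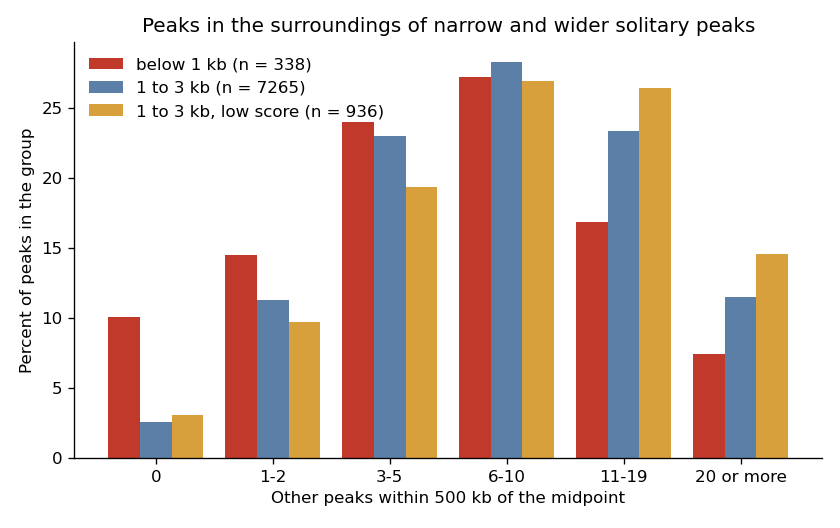
Percent of peaks in each group (bars) by the number of other peaks within 500 kb of the midpoint, for narrow solitary peaks (red), comparison peaks of 1 to 3 kb (blue) and comparison peaks of low score (yellow). With no other peak in the window stood 10.1% of the narrow peaks, 2.57% of the comparison peaks and 3.10% of those with low scores.

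Wider peaks of low score, although still somewhat higher in score than the members, had a median of 9 other peaks within 500 kb (8 to 9), more than the comparison group as a whole, and 3.10% of them (2.08 to 4.42%) had none. Among scores of 50 to 75 the medians were 6 for 215 narrow peaks and 9 for 356 wider ones, and among scores of 75 to 100 they were 6 for 64 and 9 for 316. Among scores of 100 to 150 both medians were 8, for 37 narrow and 545 wider peaks, so the difference in the median was not present there. The share with no other peak was higher for narrow peaks in each of these ranges, with 7.91% against 2.25%, 9.38% against 5.06% and 10.8% against 1.83%, though the exact intervals overlapped in the second (3.52 to 19.3% and 2.92 to 8.09%) and the third (3.03 to 25.4% and 0.883 to 3.35%). Of the 22 members scoring 150 or more, 7 had no other peak within 500 kb (31.8%, exact interval 13.9 to 54.9%), against 2.53% of the 6048 wider peaks in that range. This range has no upper limit, so scores in it were not alike. Its members had a median score of 177, and its wider peaks reached 3224.

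The comparison peaks make up 63.1% of the autosomal list and so count largely each other. When only the 3188 autosomal peaks wider than 3 kb were counted, which belong to neither group, the median was 1 around members and 2 around comparison peaks, a difference whose interval (−1 to 0) included 0. None of these wide peaks stood within 500 kb of 32.0% of members (27 to 37.2%) and 22.1% of comparison peaks (21.1 to 23%). These shares differed by 9.89 percentage points (4.85 to 15.2).

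By chromosome, the median number of other peaks was lower for members than for comparison peaks on 15 of the 22 autosomes, higher on 3 and equal on 4. It was 2.5 against 8 on chromosome 20 and 2 against 6 on chromosomes 3 and 9, whereas it was 18 in both groups on chromosome 19 and 14 in both on chromosome 17. Members with no other peak within 500 kb occurred on 17 autosomes, and on these same 17 their share was higher than that of comparison peaks. It was lower on 4 and 0 in both groups on 1. With 6 to 29 members per chromosome, the direction followed whether any such member was present. On chromosome 5 the shares were 7.69 and 7.44%.

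Across widths, the share without other peaks nearby did not change evenly. In steps of 100 bp, it was 13% of the 23 peaks under 600 bp, 10.5% of the 38 from 600 bp, 4.48% of the 67 from 700 bp, 16.1% of the 93 from 800 bp and 7.69% of the 117 from 900 bp, and the exact intervals of these classes overlapped. From 1000 bp up it lay between 1.93 and 3.78% in each of 5 classes. The median number of other peaks was 4 in both classes under 700 bp, 5 from 700 bp, 6 in both classes from 800 bp and 7 or 8 in the wider classes.

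**Figure D3:**
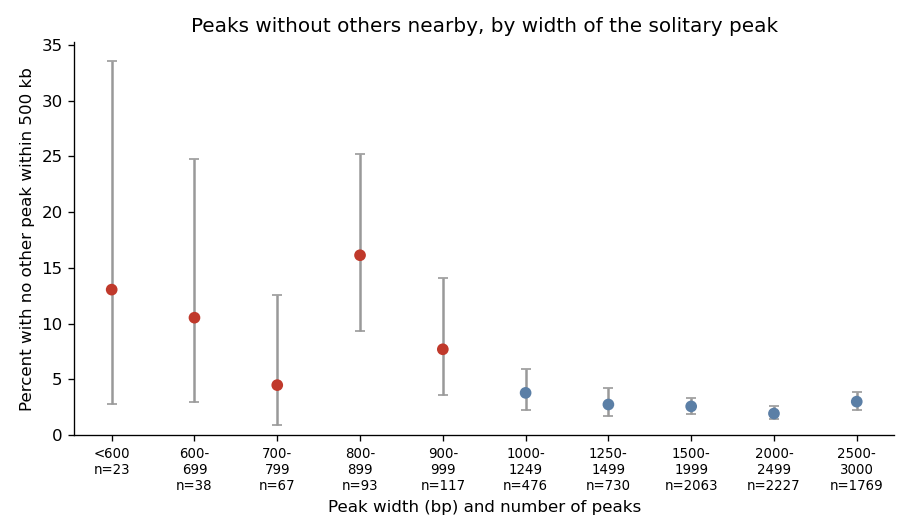
Percent of solitary autosomal peaks with no other peak within 500 kb of the midpoint, by peak width in bp (points, narrow classes red and comparison classes blue; bars, exact 95% intervals). The 5 classes under 1000 bp lie between 4.48 and 16.1% with wide intervals, and the 5 wider classes between 1.93 and 3.78%.

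The most remote narrow peaks lay in stretches of Mb without other peaks. On chromosome 3 from 166407080 to 166407839, a peak of 760 bp and score 66 was 2.53 Mb from its nearest neighbour. On chromosome 4, the peaks that start at 66121430 and 70330798, 973 and 803 bp wide, were 1.97 and 1.43 Mb from theirs, with scores of 50.46 and 69.66. The others of the 5 most remote were chr8:35502357-35502943 (1.96 Mb, score 52.61) and chr13:81161907-81162768 (1.35 Mb, score 161.09). In all, 12 members (3.55%, exact interval 1.85 to 6.12%) were more than 1000 kb from any other peak, against 49 comparison peaks (0.674%, 0.499 to 0.891%). The median distance to the nearest other peak was 51.2 kb for members (41.9 to 67.5) and 40.2 kb for comparison peaks (38.8 to 41.9). The distance rule set the lower limit of 2 kb in both groups, but it removed unequal shares of them. It left out 27% of autosomal peaks under 1 kb and 7.59% of those of 1 to 3 kb. The distances to the nearest peak are therefore a description of the chosen peaks. Whether reads can be placed uniquely in these stretches was not examined, and gaps in the genome assembly were not masked.

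The nearest neighbour of a narrow solitary peak was seldom another narrow peak, but this held for all autosomal peaks. Of these, 4.06% (3.70 to 4.43%) had a nearest neighbour under 1 kb wide. The nearest neighbour was narrower than 1 kb for 16 members, or 4.73% (2.73 to 7.57%), and for 3.45% (3.05 to 3.90%) of comparison peaks. The difference was 1.28 percentage points, and its interval (−0.774 to 4.15) included 0. In 15 places 2 members followed each other directly in the list. The gap was under 100 kb in 6 of these pairs, the closest being 2.5 kb on chromosome 4, from 81354661 to 81355257 and from 81357760 to 81358523. It was over 1 Mb in 3 of them. The widest, 3.78 Mb on chromosome 3, lay between the high-scoring member that starts at 162629478 and the remote one that starts at 166407080. On chromosome 12, the peaks from 34066478 to 34067391 (score 182.63) and from 36779487 to 36780365 (score 56.38) were separated by 2.71 Mb. These pairs were picked out after their distances were seen.

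On a grid of 1 Mb windows, 268 windows held 1 member, 27 held 2, and 5 held 3 or 4. The window with 4 members was on chromosome 6 from 26000001 to 27000000, among 33 listed peaks. Its members started at 26291792, 26630204, 26640954 and 26679775, were 820 to 878 bp wide and scored between 51.29 and 65.81. The windows with 3 members were chr1:146000001-147000000, chr5:140000001-141000000, chr17:18000001-19000000 and chr19:53000001-54000000, among 13, 14, 19 and 18 listed peaks. The member with the most other peaks within 500 kb, 39, was on chromosome 16 from 30732725 to 30733701, 7.05 kb from its neighbour. It was followed by chr17:7518677-7519656 with 37 and chr19:811298-812198 with 36, and by the members of the fullest window that start at 26291792 and 26630204, with 32 and 31.

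Among peaks that passed the distance rule, narrow ones also lay farther from the top-scoring peaks, those at 3100 or more. Scores pile up there, and the autosomes hold 974 such peaks. The rule had left out 18 of 463 narrow peaks and 57 of 7862 wider ones whose nearest neighbour, within 2 kb, was top-scoring. It thus removed a larger share of narrow peaks beside a top-scoring one, which bears on the distances given here. The median distance was 875 kb for members (679 to 1010) and 600 kb for comparison peaks (573 to 629), a ratio of 1.46 (interval 1.13 to 1.69). The interval included 1 when peaks only had to be more than 500 bp from another (1.24, 0.986 to 1.55) and when members were limited to under 800 bp (1.42, 0.963 to 1.78). Against wider peaks of low score, at a median of 495 kb (429 to 544), the ratio was 1.77 (1.35 to 2.16). A top-scoring peak stood within 500 kb of 38.8% of members (33.5 to 44.2%) and 45.4% of comparison peaks (44.3 to 46.6%). Within 100 kb the shares were 11.8% (8.59 to 15.8%) and 15.1% (14.3 to 15.9%), a difference of −3.27 percentage points whose interval (−6.62 to 0.749) included 0. It excluded 0 against wider peaks of low score (−6.54, −10.7 to −1.92) and with a distance rule of 10 kb (−4.97, −7.80 to −1.26). The same held with chromosomes X and Y (−3.89, −7.00 to −0.158) and for distances to peaks scoring 1000 or more (−5.71, −11.1 to −0.154). The interval included 0 with a distance rule of 500 bp (−1.08, −4.60 to 3.00), where the shares were 14.4 and 15.4%. It also included 0 among peaks scoring 100 or more (−6.18, −11.9 to 4.06) and for members under 800 bp (−2.60, −7.85 to 4.45). This result thus depends on the settings.

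**Figure D4:**
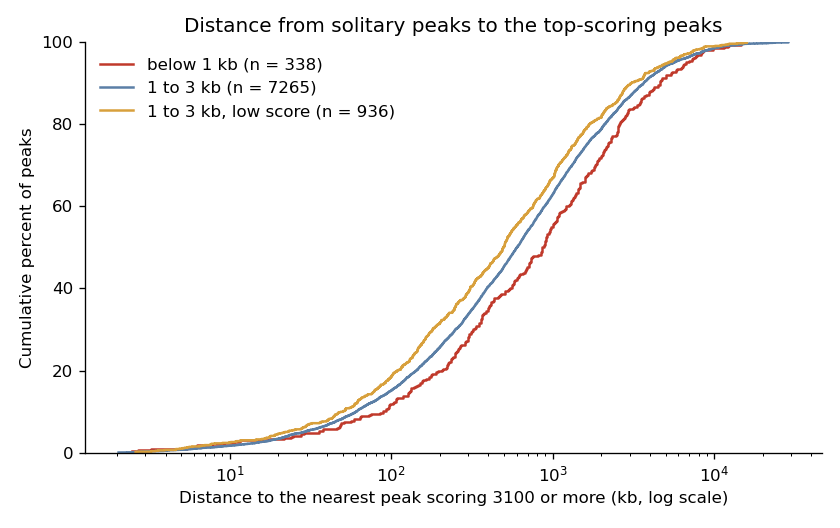
Cumulative percent of peaks by distance in kb (log scale) to the nearest peak scoring 3100 or more, for narrow solitary peaks (red), comparison peaks of 1 to 3 kb (blue) and comparison peaks of low score (yellow). The red line runs below the others over most distances, with medians of 875, 600 and 495 kb, and the lines run together below about 10 kb.

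Peaks were also compared within classes of like surroundings, set by the number of other peaks scoring below 3100 within 500 kb, so that the top-scoring peaks did not define the classes. With 3 to 5 such peaks, the median distance to a top-scoring peak was 667 kb for 96 members and 936 kb for 1813 comparison peaks (ratio 0.713, interval 0.429 to 1.16). With 6 to 10 it was 692 kb for 81 and 596 kb for 2031 (1.16, 0.764 to 2.48). With 11 or more the ratio was 1.13 (0.731 to 1.51), with 1 to 2 it was 0.977 (0.703 to 1.76), and with none it was 1.21 (0.926 to 2.29). All 5 intervals included 1 and the direction changed between classes, but 4 of the intervals also included the overall ratio of 1.46, so these counts do not settle whether the difference is present within classes. Within chromosomes, the median distance was longer for members on 14 of 22 autosomes and shorter on 8. On chromosomes 10 and 15 it was 2490 against 729 kb and 2551 against 791 kb, whereas on chromosomes 12 and 18 it was 255 against 368 kb and 1589 against 1941 kb.

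By the distance rule, no member could lie within 2 kb of a top-scoring peak. Within 10 kb of one stood 8 members, or 2.37% (1.03 to 4.61%), and 1.65% (1.37 to 1.97%) of comparison peaks, a difference smaller than the counting error. Of the 974 top-scoring peaks, 8 (0.821%, 0.355 to 1.61%) had a member within 10 kb and 47 (4.83%, 3.57 to 6.37%) had one within 100 kb. The closest member, on chromosome 12 from 6635822 to 6636647 (score 139.33), was 2494 bp from a peak of 3120 bp. The next were chr12:44941582-44942333 at 2708 bp and chr17:34255993-34256658 at 3239 bp, then chr12:123954946-123955703 and chr9:127459579-127460461 at 5465 and 6138 bp. The top-scoring neighbours of these last 4 were between 5666 and 6420 bp wide, and all 5 neighbours scored 3100. Of the 125 narrow peaks left out by the distance rule, the peak within 2 kb scored 3100 or more for 18 (14.4%, 8.76 to 21.8%). Of the 597 such peaks of 1 to 3 kb it did so for 57 (9.55%, 7.31 to 12.2%), with overlapping intervals. The rule left out a larger share of narrow peaks, however. Of all autosomal peaks, these were 18 of 463 under 1 kb and 57 of 7862 of 1 to 3 kb. Before the rule, narrow peaks thus stood directly beside a top-scoring peak more often than wider ones. The nearest other peak had a median width of 2220 bp (2066 to 2342) beside members and 2297 bp (2268 to 2330) beside comparison peaks, and a median score of 518 (429 to 727) and 619 (596 to 642). The typical peak next to a member was thus neither narrow nor at the bottom of the scale, and both pairs of intervals overlapped.

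Over the chromosomes, narrow solitary peaks made up between 1.73 and 5.45% of the listed peaks. The share was 5.45% on chromosome 21 (6 of 110), 5.39% on chromosome 18 (9 of 167), 4.81% on chromosome 5 (26 of 541) and 4.61% on chromosome 6 (29 of 629). It was 1.73% on chromosome 8 (7 of 405), 1.96% on chromosome 20 (6 of 306) and 2.04% on chromosome 22 (6 of 294). Only on chromosomes 5 and 6 did the exact interval (3.16 to 6.96% and 3.11 to 6.55%) lie above the autosomal value of 2.94%, and on no chromosome did it lie below. Each chromosome held between 6 and 29 members, and the intervals of chromosomes 8 and 21 overlapped, so the chromosomes cannot be ordered from these counts. Chromosomes 16, 17, 19 and 22, on which listed peaks are densest for the length, carried 17.8% of members (13.8 to 22.3%) and 21.3% of comparison peaks (20.4 to 22.3%). That difference of −3.57 percentage points had an interval (−7.61 to 1.03) that included 0. The interval excluded 0 against wider peaks of low score (−7.78, −12.7 to −2.50), of which 25.5% were on these chromosomes, against peaks of 1 to 2 kb (−4.99, −9.18 to −0.267) and for members under 800 bp (−8.04, −13.5 to −0.849).

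**Figure D5:**
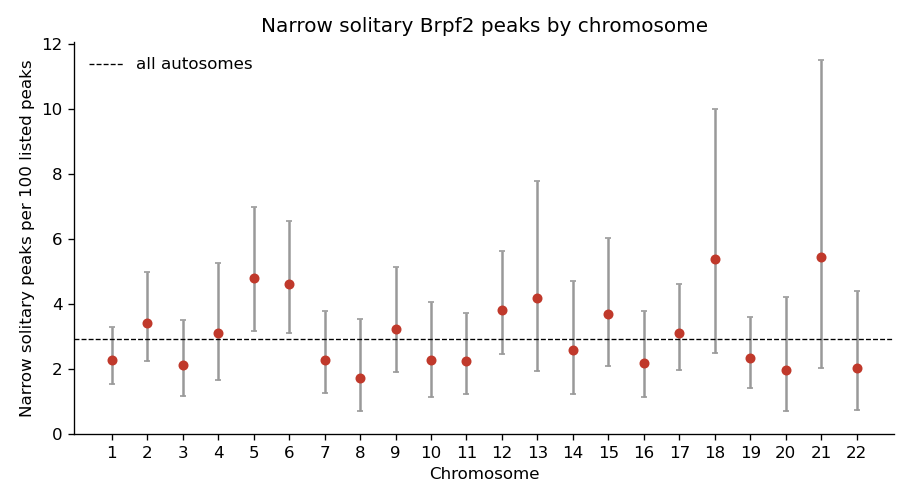
Narrow solitary peaks per 100 listed peaks on each autosome (points) with exact 95% intervals (bars), and the value for all autosomes (dashed line). Values run from 1.73 on chromosome 8 to 5.45 on chromosome 21, and only the intervals of chromosomes 5 and 6 lie above the dashed line.

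The densities of narrow and wider solitary peaks were highest and lowest on the same chromosomes. Taking each chromosome to end with its last listed peak, members per Mb ranged 6.22-fold over the autosomes, from 0.0479 on chromosome 8 to 0.298 on chromosome 19, and comparison peaks 7.18-fold, from 1.16 to 8.34. Per 100 protein-coding genes, counted by chromosome in the RefSeq annotation of GRCh38.p14, there were 1.77 members and 38.0 comparison peaks over all autosomes. Members numbered 3.33 per 100 genes on chromosome 18 (exact Poisson 95% interval 1.52 to 6.33), with 2.88 for chromosome 5 (1.88 to 4.22) and 2.76 for chromosome 6 (1.85 to 3.97). On gene-rich chromosome 19 the number was 1.31 per 100 genes (0.788 to 2.04), and chromosome 8 had 0.980 (0.394 to 2.02). No gene annotation or sequence of hg18 was used, so the genes and the bases at these sites are not given.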

How the data were processed

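The deposited Brpf2 peak list gives chromosome, start, end, name and score per peak in hg18. Peak names carry the name of the caller MACS, and BWA, SAMtools and bedtools are named in the submitters' processing notes. The caller's version, settings and control library were not given in the sources used here. In that list, the deposited score is the authors' value for a peak, on a scale the file does not state. Read depth is not in the list, so no peak has a counting interval. Peaks were used as listed, including 2 whose starts lie before position 1, of which 1 is a member. Callers can give a peak with fewer reads a smaller width and score, so depth and the caller's settings bear on which peaks are under 1 kb.

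Distances were taken edge to edge, and surroundings by midpoints. Assembly gaps were not masked, and windows that ran past a chromosome end were not corrected. Shares have exact Clopper-Pearson 95% intervals and medians distribution-free intervals from binomial order statistics. Intervals of differences and ratios combine those of both groups. Members, comparisons and lists were chosen with earlier results of these data known. Regions were named by rule: the 5 narrowest, 8 highest-scoring, 5 most remote, 5 nearest to a top-scoring peak and 5 with most neighbours, the 5 fullest windows of 1 Mb, and 3 peaks on either side of each limit. Comparisons by score range, by surroundings, at scores of 150 or more and with peaks wider than 3 kb alone as neighbours were added after seeing the data. The code (Python 3.11.15, pandas 2.3.3, scipy 1.17.1) was tested on simulated data.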

Additional observations from a re-analysis of the deposited data

How the results depend on the processing

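Of 92 alternative values, 68 stayed within the interval of the reported one. The number of members has no interval, and a fixed band of 225 to 507 took its place. A score of at least 100 left 59 members (median score 131, no other peak within 500 kb in 16.2 percentage points more members than comparison peaks). A width limit of 800 bp left 128 members (median score 59.3), with differences of −8.04 percentage points for the dense chromosomes and −4 in the median number of other peaks. Against wider peaks of low score these were −7.78 points for the dense chromosomes and a distance ratio of 1.77. Within 500 kb of a top-scoring peak the difference was −6.68 points. Taken as the median of the differences on each autosome, the difference in narrow nearest neighbours was −2.56 points. It has no interval and rests on 16 members with such a neighbour. Among settings added after seeing the data, scores of at least 150 left 22 members (median 177). The difference was −11.4 points for the dense chromosomes (−19.4 to 8.73) and −3.5 other peaks (−7.14 to 1). The distance ratio was 1.82 (0.401 to 3.43), and narrow nearest neighbours differed by −3.36 points (−3.84 to 12.1). These intervals included 0, or 1 for the ratio. The difference of 29.3 points with no other peak had an interval (11.3 to 52.3) that excluded 0. Scores of 100 to 150 gave a difference of 0 other peaks. Within classes of surroundings the distance ratio was reversed in 4 cases. By all other peaks, it was 0.860 (3 to 5 others), 0.927 (6 to 10) and 1.12 (11 or more), and these classes count the top-scoring peaks too. By peaks below 3100, it was 0.977 (1 to 2) and 0.713 (3 to 5). The excess of members with no other peak kept its direction in all 13 alternatives run for it, each of which kept a distance rule. The causes were not tested. No paired analysis was possible because each target has 1 sample. With 1 library and unknown read depth, how these peaks would repeat or widen in a deeper library cannot be estimated.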

Other observations

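Chromosome X, which the rule leaves out, held narrow solitary peaks too. Of its 350 peaks, 27 (7.71%, exact 95% interval 5.15 to 11%) were under 1 kb and more than 2 kb from any other peak, against 2.94% (2.64 to 3.26%) of autosomal peaks. Their median score was 62.5 (57.4 to 72.4), close to the 65.6 of the autosomal ones, and 4 of them (14.8%, 4.19 to 33.7%) had no other peak within 500 kb, against 6.35% (3.67 to 10.1%) of 252 peaks of 1 to 3 kb on X. Their median distance to a top-scoring peak was 8.93 Mb (3.49 to 27.2), against 9.60 Mb (7.48 to 16.8) for those wider peaks, the opposite direction to the autosomes with widely overlapping intervals. On chromosome Y, 2 of 11 peaks met the rule.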
